A study of Mus musculus with 4 samples.

Results

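Col2a1, Col9a1, Col9a2, Col9a3, Col11a1, Col11a2 and Col27a1 encode the fibrillar and fibril-associated collagens that are typical of cartilage. They were chosen by name, as listed genes, and all 7 were found once each among the 50686 gene identifiers of the hip tables and the 54838 of the knee tables. RNA-seq counts came from 4 mouse libraries labelled as articular cartilage, with 1 library per group. The hip control was from Cbfb f/f mice, with no Cre in the genotype label and None as the treatment label, and it was paired with tamoxifen (TMX) injected Cbfb f/f;Col2a1-CreERT mice. The knee control was from oil injected Cbfb f/f;Aggrecan-CreERT mice, and it was paired with TMX injected mice of the same genotype. Hip mice were males taken as 6 weeks old and knee mice males taken as 12 weeks old, though the sources used here give more than one age for the hip. All animals carried the floxed Cbfb allele, which encodes core binding factor beta, the partner subunit of the RUNX transcription factors. In both lines TMX activates a Cre that acts in chondrocytes, under Col2a1 regulatory sequence in the hip line, so one of the 7 genes also lends its promoter to the transgene. Whether RNA of several animals was pooled is not given in the sources used here. The methods of the study also describe Cbfb f/f mice that received TMX or corn oil, so the TMX status of the hip control rests on its label. In the hip pair, Cre, the intended Cbfb deletion and, by the labels, TMX differed together and cannot be told apart. The discussion of the study describes the hip samples as articular cartilage alone and the knee samples as cartilage with bone. The pairs also differed from each other in joint, age, Cre line, control type, tissue taken and the set of gene identifiers counted. These differences cannot be told apart.

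Collagen fibrils of cartilage are built mainly from type II collagen, a homotrimer of the Col2a1 chain. Type XI collagen, assembled from Col11a1, Col11a2 and a modified Col2a1 chain, lies within the fibril and limits its width. Type IX collagen, a FACIT (fibril-associated collagen with interrupted triple helices) made of Col9a1, Col9a2 and Col9a3 chains, is cross-linked to the fibril surface. Type XXVII collagen, a homotrimer of Col27a1, is a further fibrillar collagen of cartilage that is prominent in growth plate and developing skeleton. SOX9, with SOX5 and SOX6, is the textbook activator of Col2a1, Col9 and Col11 genes.

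Counts on genes were 38473120 for the hip control, 34582780 for the hip TMX library, 34264456 for the knee control and 38228029 for the knee TMX library. With 1 library per group there was no test and no replicate check, and the 95% intervals given here cover counting error only. Levels are counts per 1000000 counted on genes (CPM), and 3 counts, taken as the floor, equal 0.0780 to 0.0876 CPM. Ratios are log2 of the TMX library over its control, scaled by TMM (trimmed mean of M-values) within the pair. Cbfb had 2548 counts in the hip control and 2946 in the hip TMX library, and 3796 and 4572 in the knee pair. Its log2 ratio was 0.41 (interval 0.33 to 0.48) in the hip and -0.07 (interval -0.13 to -0.01) in the knee, neither near a call, and the hip ratio was -0.25 after adjustment for a trend with transcript length and GC content. The whole-gene count does not separate the deleted part of Cbfb from the rest, so it does not check the deletion. Skeletal muscle markers held 20.4% of counts in the hip control and 21.5% in the hip TMX library, against 1.57% and 3.36% in the knee. The 7 collagen genes together went from 0.00505% to 0.00369% in the hip pair and from 0.484% to 0.151% in the knee pair. The 7 collagen genes were thus detected in every library but were sparse in the hip. Of 16 chondrocyte markers that are not collagens, the 2 with 3 counts or fewer in both hip libraries were Matn1 and Epyc, cartilage matrix genes. Others had more, such as Comp with 4715 and 1286 hip counts and Acan with 443 and 288.

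In the knee pair all 7 collagen genes were lower in the TMX library, from 2.01-fold for Col27a1 to 16.4-fold for Col9a1. In the hip pair the genes were split: Col9a1 was lower, Col9a3 and Col27a1 were higher, and the other 4 were not called. A call needed 10 counts or more summed over both libraries, a log2 ratio of 1 or more in either direction, and an interval clear of 0. By this rule 6.81% of the 21131 genes tested in the knee pair were lower and 9.0% were higher, while 16.3% of the 19856 genes tested in the hip pair were lower and 20.2% were higher. All 7 lower in the knee is therefore set against a background of 6.81%, and 1 lower and 2 higher of 7 in the hip against 16.3% and 20.2%. The median log2 ratio of the 7 genes was -1.91 in the knee and -0.44 in the hip, beside 0.02 and 0.01 over all genes tested. In bulk tissue, a smaller share of chondrocytes in the sample and less RNA per chondrocyte cannot be told apart.

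**Figure D1:**
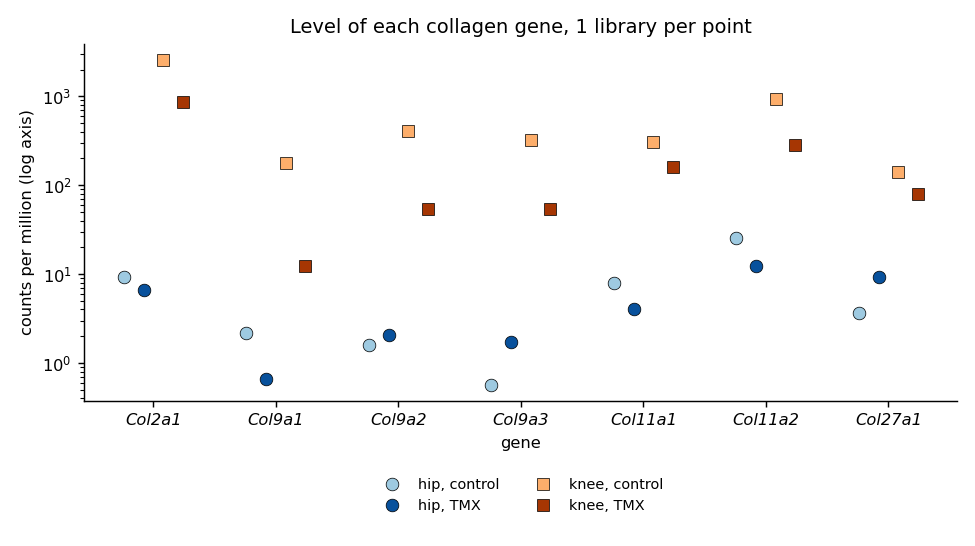
Level of each of the 7 collagen genes in CPM (log axis) by gene, with 1 point per library, circles for the hip and squares for the knee. The knee squares sit above the hip circles for every gene, and the darker TMX square lies below the control square for all 7 genes. The hip and knee tables list different sets of gene identifiers, so heights are best compared within a joint.

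Col2a1, the gene for the main chain of the cartilage fibril, lies on chromosome 15 (GRCm39, 97873483 to 97902689, minus strand). It had 87367 counts in the knee control and 33204 in the knee TMX library, or 2550 and 869 CPM. It ranked 27 among all genes by count in the knee control and 108 in the TMX library. The log2 ratio was -1.74 (95% interval -1.75 to -1.72), a 3.33-fold lower level, and 3.46% of the genes tested had a lower ratio. In the hip libraries Col2a1 had 354 and 228 counts, or 9.20 and 6.59 CPM, and ranked 7409 and 8948. The hip ratio was -0.44 (interval -0.68 to -0.19), below the size needed for a call, and it became 0.17 (interval -0.07 to 0.42) when ratios were adjusted for a trend with transcript length and GC content.

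Col9a1, whose chain carries the large amino-terminal domain of type IX collagen, lies on chromosome 1 (24216691 to 24291765, plus strand). Its knee counts were 6059 in the control and 466 in the TMX library, or 177 and 12.2 CPM. That ratio of -4.04 (interval -4.18 to -3.90) was the lowest of the 7 genes, and only 0.478% of the genes tested in the knee had a lower one. In the hip Col9a1 had 83 and 23 counts, or 2.16 and 0.665 CPM. The hip ratio was -1.63 (interval -2.39 to -0.97), and by the main TMM scaling Col9a1 was the only one of the 7 genes called lower in both joints. Col11a2 by library size, and Col11a1 after the adjustment for length and GC content, were also lower in both.

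Col9a2, the second chain of type IX collagen, lies on chromosome 4 (120896582 to 120912523, plus strand). It had 13983 and 2046 counts in the knee control and TMX library, or 408 and 53.5 CPM, with a ratio of -3.11 (interval -3.18 to -3.05). In the hip it had 62 and 71 counts, or 1.61 and 2.05 CPM, and the ratio of 0.39 had an interval that reached below 0 (-0.12 to 0.91). Adjusted for length and GC content, the hip ratio was 1.002 and was called higher. Col9a3, the third chain, lies on chromosome 2 (180239583 to 180264063, plus strand). Its knee counts were 10984 and 2042, or 321 and 53.4 CPM, and its knee ratio was -2.77 (interval -2.84 to -2.70). Its hip counts were 22 in the control, the fewest of any of the 7 genes there, and 59 in the TMX library, or 0.572 and 1.71 CPM, with a ratio of 1.60 (interval 0.89 to 2.40). Col9a3 thus stood on opposite sides of its control in the hip and knee pairs. Of the exon bases of Col9a3, 11.8% overlap exons of Tcfl5 on the opposite strand, and whether counting used strand is not given. Tcfl5 itself had 8 and 3 counts in the hip pair, and 32 and 66 in the knee pair.

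Among the chains of one heterotrimer, Col9a2 and Col9a3 had nearly equal counts in the knee TMX library, at 0.998 Col9a3 reads per Col9a2 read, against 0.786 in the knee control. In the hip the same quotient was 0.355 in the control and 0.831 in the TMX library. The 3 type IX chains together made up 18.7% of the reads on the 7 genes in the knee control and 7.88% in the knee TMX library. In the hip they made up 8.60% and 11.98%, but their own reads were nearly level, at 167 and 153, while Col11a2 had 978 and 432.

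Col11a1, the first chain of type XI collagen, lies on chromosome 3 (113824134 to 114014367, plus strand). It had 10408 counts in the knee control and 6186 in the TMX library, or 304 and 162 CPM, with a ratio of -1.09 (interval -1.14 to -1.04). The hip counts were 302 and 141, or 7.85 and 4.08 CPM. The hip ratio of -0.90 (interval -1.20 to -0.61) was not called, but was -1.36 and called lower after the adjustment for length and GC content. Col11a2, the second chain, lies on chromosome 17 (34258108 to 34285664, plus strand). It had 32214 and 10822 counts in the knee, or 940 and 283 CPM, a 3.77-fold lower level with a ratio of -1.91 (interval -1.94 to -1.88). In the hip it had 978 and 432 counts, or 25.4 and 12.5 CPM, the most reads of any of the 7 genes in both hip libraries, before any correction for length. Its hip ratio was -0.98 (interval -1.15 to -0.82), just short of a call, and -1.02 by library size scaling, where it was called. Both type XI chains were thus below their controls in both joints, in the hip without a call. In the knee there were 3.10 Col11a2 reads per Col11a1 read in the control and 1.75 in the TMX library, against 3.24 and 3.06 in the hip.

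Col27a1, the type XXVII chain, lies on chromosome 4 (63132241 to 63253228, plus strand). It had 4808 and 3031 counts in the knee control and TMX library, or 140 and 79.3 CPM. Its knee ratio of -1.005 (interval -1.07 to -0.94) was the smallest in size of the 7 and lay at the threshold of the call. In the hip Col27a1 had 142 counts in the control and 323 in the TMX library, or 3.69 and 9.34 CPM, with a ratio of 1.38 (interval 1.09 to 1.68). It was 2.60-fold higher in the hip TMX library, the opposite side from the knee.

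**Figure D2:**
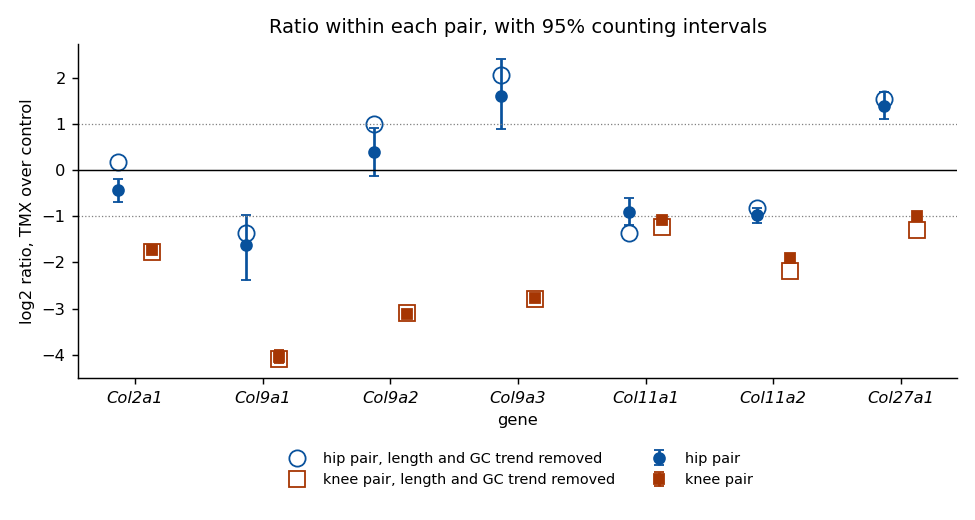
Log2 ratio of TMX over control for each of the 7 genes, hip pair as circles and knee pair as squares, with bars for the 95% counting interval and open symbols for ratios adjusted for length and GC content. Filled knee squares lie between -4.04 and -1.005, while filled hip circles lie on both sides of 0, from -1.63 to 1.60.

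The knee calls depended on scaling for the genes near the threshold. Scaling by library size in place of TMM raised every knee ratio by 0.18, which left 5 of the 7 genes called lower, without Col11a1 (-0.91) and Col27a1 (-0.82). In the hip pair, library size scaling left 2 of 7 lower and 2 higher. All 7 knee ratios were below 0 with TMM, library size, DESeq2 size factors, and library size without marker genes of other tissues.

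To ask whether the collagens changed in proportion, each was counted against Col2a1 in its own library, a quotient that needs no scaling. In the knee control there were 16.0 Col9a2 reads, 12.6 Col9a3 reads and 6.94 Col9a1 reads per 100 Col2a1 reads. In the knee TMX library these were 6.16, 6.15 and 1.40. The log2 changes relative to Col2a1 were -1.38 for Col9a2, -1.03 for Col9a3 and -2.30 (interval -2.44 to -2.17) for Col9a1. The 3 type IX chains were thus lower by more than Col2a1 was, beyond counting error. Col11a1 moved from 11.9 to 18.6 reads per 100 Col2a1 reads (log2 change 0.65, interval 0.60 to 0.69) and Col27a1 from 5.50 to 9.13 (0.73, interval 0.66 to 0.80). These 2 genes were lower by less than Col2a1. Col11a2 had 36.9 and 32.6 reads per 100 (-0.18, interval -0.21 to -0.14).

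In the hip, Col11a2 had more reads than Col2a1 in the control, with 276 per 100 Col2a1 reads, and 190 in the TMX library. Col11a1 went from 85.3 to 61.8 reads per 100 and Col9a1 from 23.5 to 10.1. The opposite was seen for Col27a1, from 40.1 to 142, and for Col9a3, from 6.22 to 25.9. Col9a2 was also higher relative to Col2a1, from 17.5 to 31.1 reads per 100 (log2 change 0.83, interval 0.26 to 1.40). All 6 quotients kept their direction in both joints after the adjustment for length and GC content, and 3 of the 6 in each joint moved beyond their counting interval. The hip log2 change relative to Col2a1 went from -0.46 to -1.54 for Col11a1, from -0.54 to -0.9997 for Col11a2 and from 1.82 to 1.36 for Col27a1. The knee log2 change went from -0.18 to -0.42 for Col11a2, from 0.65 to 0.54 for Col11a1 and from 0.73 to 0.46 for Col27a1.

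**Figure D3:**
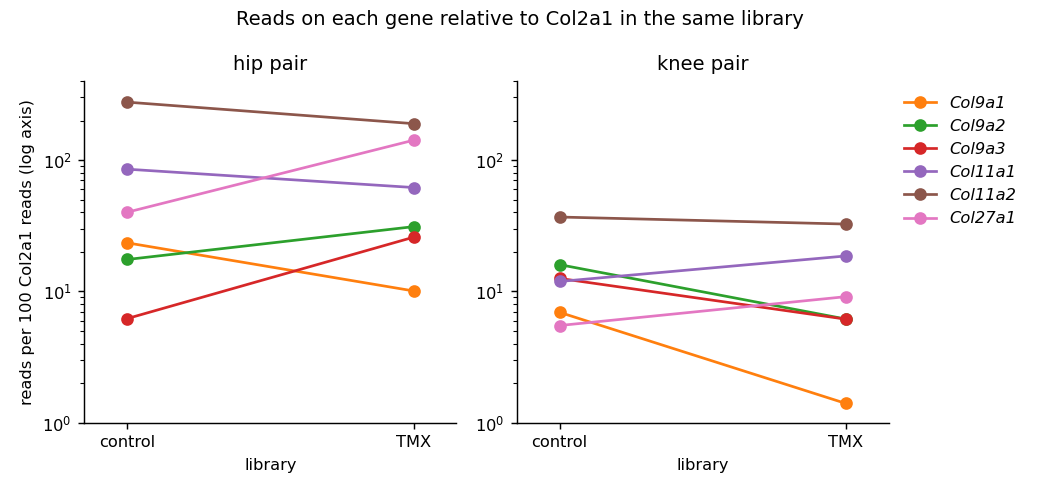
Reads on each of the other 6 genes per 100 Col2a1 reads (log axis) in the control and TMX library of the hip pair (left) and the knee pair (right), 1 line per gene. In the knee the 3 type IX lines slope down and the Col11a1 and Col27a1 lines slope up. In the hip Col9a3 and Col27a1 have the steepest upward lines.

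Col2a1 took 52.7% of the reads on the 7 genes in the knee control and 57.5% in the knee TMX library, but only 18.2% and 17.9% in the hip. The type XI chains took 65.9% and 44.9% in the hip libraries, against 25.7% and 29.4% in the knee libraries. Per kilobase of mean transcript length, a rough scale between genes, Col2a1 was the highest of the 7 genes in both knee libraries, at 1189 and 405 CPM per kilobase. The scale is rough because mean and longest annotated transcript differ unequally. They were 2145.4 and 5220 bases for Col2a1, and 4597.4 and 6858 for Col11a2. Col11a2 was highest in the hip control, at 5.53 CPM per kilobase. In the hip TMX library, Col2a1 (3.07) stood above Col11a2 (2.72) by mean transcript length and below it (1.26 against 1.82) by the longest transcript, so their order there was not settled. In the knee control, Col9a2 (206) and Col11a2 (205) were almost level per kilobase. In the knee TMX library they were apart, at 27.0 and 61.6, and Col9a1 was the lowest of the 7 genes at 5.67.

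**Figure D4:**
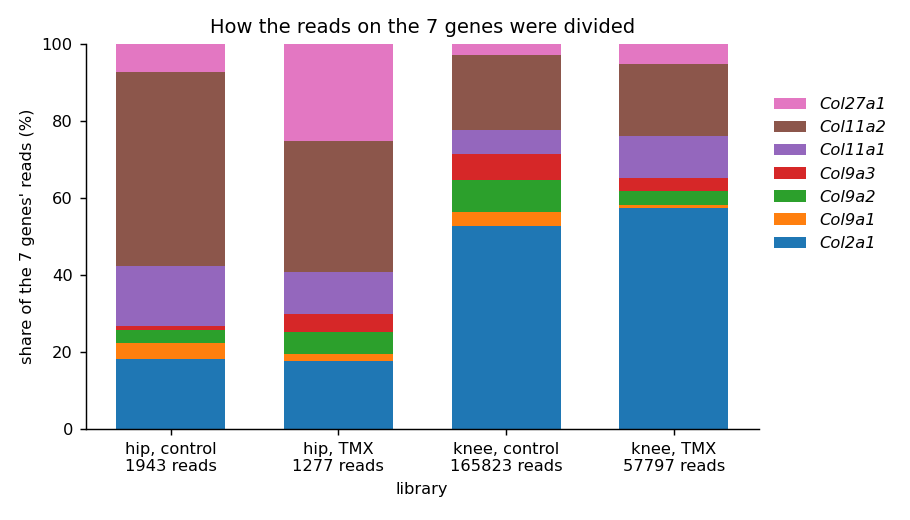
Share of the reads on the 7 genes (%, stacked to 100) taken by each gene in each of the 4 libraries, with the number of reads under each bar. Col2a1 fills over 52% of both knee bars, and Col11a2 is the largest block of both hip bars.

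Sequence before the annotated start was examined because the genes were low together in the knee and because Cbfb acts through RUNX factors. RefSeq promoter windows on GRCm38.p6, cut here to the 250 bases before the start, were matched for 5 of the 7 genes, with 2 starts for Col9a1. Col2a1 and Col9a3 had no matched window. Windows were searched on both strands for TGTGGT or TGCGGT (RUNX core), AACAAT or ACAAAG (SOX core) and GGGCGG (GC box). The windows of Col9a1 and Col9a2 are shown for the lowest knee ratios with a window, that of Col11a2 for a gene below its control in both joints, and that of Col27a1 for the gene with opposite sides. Capitals mark GC box matches on either strand, and lower case is all other sequence.
Col9a1 (chr1:24177360-24177609, plus strand): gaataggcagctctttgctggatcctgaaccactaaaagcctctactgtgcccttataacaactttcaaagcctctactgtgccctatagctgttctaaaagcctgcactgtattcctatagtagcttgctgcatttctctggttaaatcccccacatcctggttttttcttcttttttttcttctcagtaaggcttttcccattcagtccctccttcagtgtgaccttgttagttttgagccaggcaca
Col9a1 (chr1:24194953-24195202, plus strand): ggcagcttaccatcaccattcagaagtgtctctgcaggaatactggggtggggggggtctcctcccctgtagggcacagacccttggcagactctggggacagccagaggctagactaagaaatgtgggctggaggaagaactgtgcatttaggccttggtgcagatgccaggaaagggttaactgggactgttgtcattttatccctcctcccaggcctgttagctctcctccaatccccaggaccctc
Col9a2 (chr4:121039316-121039565, plus strand): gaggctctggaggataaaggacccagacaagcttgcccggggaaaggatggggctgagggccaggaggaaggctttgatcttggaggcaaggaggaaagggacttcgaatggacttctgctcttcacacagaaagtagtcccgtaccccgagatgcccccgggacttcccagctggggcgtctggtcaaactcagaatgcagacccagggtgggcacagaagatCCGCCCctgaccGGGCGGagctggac
Col11a2 (chr17:34038888-34039137, plus strand): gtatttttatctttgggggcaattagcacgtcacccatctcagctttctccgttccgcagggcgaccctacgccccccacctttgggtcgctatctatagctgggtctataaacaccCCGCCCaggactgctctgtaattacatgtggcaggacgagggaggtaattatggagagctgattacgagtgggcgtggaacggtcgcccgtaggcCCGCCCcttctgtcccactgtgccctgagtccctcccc
Col27a1 (chr4:63215162-63215411, plus strand): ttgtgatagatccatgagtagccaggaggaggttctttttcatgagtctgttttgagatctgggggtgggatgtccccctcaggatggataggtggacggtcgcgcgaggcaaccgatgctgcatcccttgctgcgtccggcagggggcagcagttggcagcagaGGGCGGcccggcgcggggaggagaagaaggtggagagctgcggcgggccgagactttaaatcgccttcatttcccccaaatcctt

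None of the 6 windows held a RUNX or a SOX core of these letters, which 18.6% and 24.0% of all 32851 windows held. This says only that the letters are absent here and nothing of binding. A GC box was present in the windows of Col9a2, Col11a1 and Col11a2 (2 each) and Col27a1 (1), and in neither Col9a1 window, against 32.7% of all windows. Col9a1, without a GC box, had the lowest knee ratio of the 7 genes, and Col9a2, with 2, the second lowest. GC content was 43.6% and 56.0% in the 2 Col9a1 windows and 57.6% to 62.4% in those of the other 4 genes.

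The SOX factors that act on these genes had unlike ratios. Sox9, the central regulator, had 1554 and 947 counts in the knee, a ratio of -1.05 (interval -1.17 to -0.94) that was called lower, though not by library size scaling (-0.87). In the hip it had 249 and 372 counts and a ratio of 0.78, which was not called. Sox6 had a ratio of 1.10 in the hip, called higher, and of 0.09 in the knee, while Sox5 was not called in either joint (-0.15 and 0.76). Adjusted for length and GC content, the hip ratios were 0.31 for Sox6 and -1.06 for Sox5, which was then called lower.

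The other collagens were counted by the same rule. Of the 7 other fibrillar collagen genes, 2 were lower and none was higher in the knee, namely Col1a1 (-1.06, or -0.88 and not called by library size) and Col1a2 (-1.32), the chains of type I collagen of bone and tendon. Col3a1 had 23845 and 52435 knee counts and a ratio of 0.80, not called, and the median of the 7 was 0.14. In the hip pair 4 of these 7 genes were lower and 2 higher, with Col1a1 at -2.23, Col3a1 at -2.22 and Col24a1 highest at 1.99. Col1a1 had 315688 counts in the knee control and 191508 in the knee TMX library. The RNA extraction text in the labels names osteoblasts, and osteoblast markers, Col1a1 among them, held 1.21% of counts in the knee control and 0.713% in the TMX library. Without Col1a1 the other 11 markers held 0.289% and 0.212%.

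Of 5 other FACIT genes with enough counts in the knee, none was lower and Col20a1 alone was higher, at 1.02 from 29 and 75 counts (0.94 and not called after the adjustment for length and GC content). Col12a1 and Col16a1, FACITs of tendon and other connective tissue, had knee ratios of 0.62 and 0.10, and Col22a1 one of -0.07. These values stand against -4.04 to -2.77 for the 3 type IX chains. In the hip 2 of 6 other FACIT genes were lower and 1 was higher, with Col14a1 at -1.81 and Col20a1 at 2.26, and 4 were lower after the adjustment for length and GC content. Among 8 network and pericellular collagens, 1 was lower and 1 higher in the knee: Col10a1, the collagen of hypertrophic cartilage, at -1.42, and Col8a2 at 2.04. In the hip 4 of these 8 were lower, with Col10a1 at -1.72, Col6a2 at -2.15 and Col8a2 at -2.21.

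**Figure D5:**
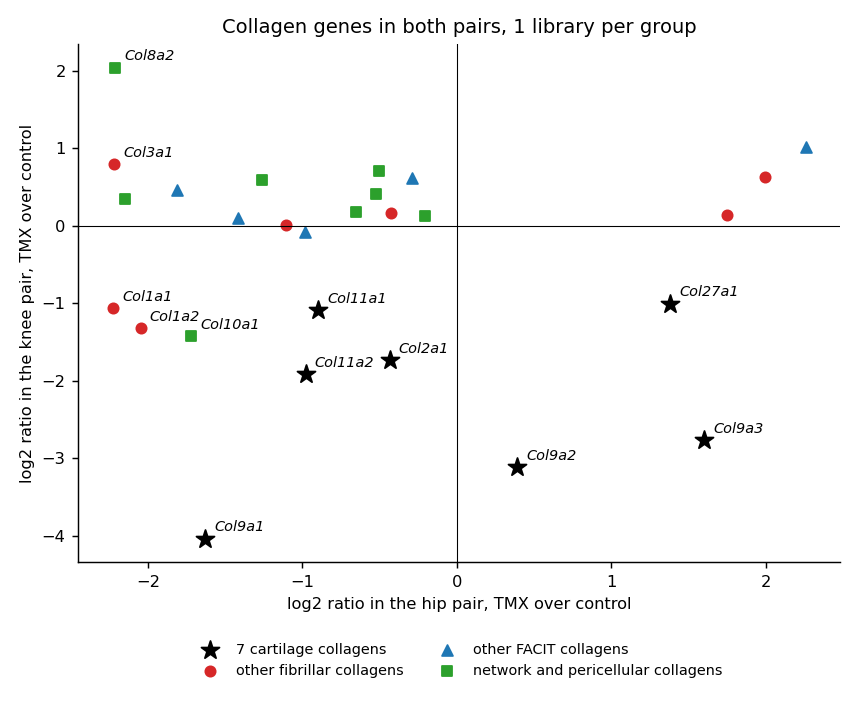
Log2 ratio of TMX over control in the hip pair (x axis) and in the knee pair (y axis) for the 7 cartilage collagens (stars) and the other collagen genes that had 10 or more counts in both pairs. All 7 stars lie at or under -1.005 on the knee axis, as do Col1a1, Col1a2 and Col10a1 of the others, and 3 stars lie right of 0 on the hip axis.

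Collagen chains are modified and folded in the endoplasmic reticulum before export. None of 18 genes for modification and folding was called lower in the knee and 1 was higher, P3h2, a prolyl 3-hydroxylase, at 1.88. Serpinh1, the collagen chaperone HSP47, had a knee ratio of -0.88, and Fkbp10, a prolyl isomerase of the endoplasmic reticulum, one of -0.98, both short of a call. After the adjustment for length and GC content 4 of the 18 were lower in the knee, Serpinh1 and Fkbp10 (-1.06 each), Plod2 (-1.03) and Colgalt2 (-1.09). In the hip 3 of the 18 were lower and 1 higher, with Serpinh1 at -1.87 and Plod2, a lysyl hydroxylase, at 1.10. Of 12 genes for propeptide removal and cross-linking, none was lower and 1 was higher in the knee (Tll1, 2.42, from 8 and 57 counts), and 6 were lower and 1 higher in the hip. Pcolce, an enhancer of procollagen cleavage, was at -1.90 in the hip and -0.59 in the knee, and Lox, the lysyl oxidase, at 1.29 and -0.42. None of 8 secretion genes was called in the knee, and in the hip 1 was lower and 3 were higher, among them Mia3 (TANGO1) at 1.64. With the adjustment for length and GC content, none of the secretion genes was called in the hip (Mia3 0.86, Mia2 0.36, Sec23a 0.12, Creb3l1 -0.93), nor were Plod2 (0.21) and Lox (0.24).

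Among partners on the fibril surface, Matn3, matrilin 3, which binds type IX collagen, had 3384 counts in the knee control and 78 in the TMX library. Its ratio of -5.77 (interval -6.12 to -5.45) was below that of Col9a1, and it was the only one of 11 partners called lower in the knee, where Thbs3 (-0.94) joined it at -1.04 after the adjustment for length and GC content. Comp, which binds collagens II and IX, had a knee ratio of 0.06, and the leucine-rich proteoglycans Dcn, Bgn and Fmod had knee ratios of -0.03, -0.17 and -0.13. Chad, chondroadherin, was at 0.69. In the hip 8 of 10 partners with enough counts were lower, with Fmod at -2.48, Chad at -1.81, Comp at -1.68 and Matn3 at -1.59, though after the adjustment for length and GC content Comp was at -0.90 and not called, and Dcn went from -0.49 to -1.80 and was called lower.

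Of 7 collagen receptor genes, 2 were higher and none lower in the knee, namely Ddr2 at 1.18 and Itga11 at 1.13, neither of them called after the adjustment for length and GC content (0.99 and 0.80). In the hip, of 6 with enough counts, 1 was lower (Itga11, -1.31) and 3 were higher, with Itga10, the chondrocyte integrin for type II collagen, at 1.10. Of these 3, Itga10 alone was still called after the adjustment for length and GC content, while Itga1 went from 1.10 to 0.05 and Itgb1 from 1.03 to -0.03. Of 5 detected fibrillar collagenases, 3 were lower in the knee: Mmp13, which cleaves type II collagen, at -1.71 from 27871 and 10772 counts, Ctsk at -1.43, and Mmp14 at -1.12, or -0.93 and not called by library size. In the hip Mmp13 was at 0.32, or -0.62 after the adjustment for length and GC content, Mmp2 was lower at -1.44 and Mmp8 higher at 1.88. Mmp1a had 0 counts in all 4 libraries.

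Other markers moved with the knee values, and their part in the collagen ratios was not tested. Among 16 chondrocyte markers that are not collagens, 8 were lower and 1 was higher in the knee. These counts were 7 and 0 after the adjustment for length and GC content, and 7 and 1 by library size. The summed share of the 16 was 0.189% in the control and 0.194% in the TMX library. Comp and Chad, neither of them called, held the larger part of that sum, and the other 14 markers went from 0.0849% to 0.0461%. Acan, which encodes aggrecan, was not among the lower ones, with 858 and 1387 knee counts and a ratio of 0.35. Cnmd, chondromodulin, was at -1.89, Hapln1, the link protein, at -1.57 and Epyc at -3.08. Of 24 skeletal muscle markers 15 were higher in the knee TMX library (13 after the adjustment for length and GC content, 17 by library size). Erythroid markers went from 10.0% to 4.96% of knee counts, with 4 of 10 lower, or 0 of 10 after the adjustment for length and GC content. Osteoclast markers went from 0.344% to 0.191%, with 5 of 8 lower. Osteoblast markers had 4 of 12 lower (2 by library size) and 1 higher, adipocyte markers 3 of 9 higher (5 after that adjustment), and none of the tendon or fibroblast markers was called in the knee. With these marker genes of other tissues taken out of the library size, the knee median of the 7 collagens was -1.79.

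In the hip, 3 of 24 muscle markers were lower and 3 higher (1 and 4 after the adjustment for length and GC content). Chondrocyte markers were 5 lower and 2 higher of the 14 with enough counts (5 and 0 after that adjustment). Their sum went from 0.0279% to 0.0201%, or from 0.00893% to 0.0145% without Comp and Chad. Most of the sum without Comp and Chad was Sox6, with 2149 and 4012 hip counts. Tendon markers went from 0.0472% to 0.0117% (4 of 6 lower) and fibroblast markers from 0.0312% to 0.0112% (4 of 7 lower, or 5 after the adjustment). Osteoblast markers went from 0.0925% to 0.0224% (6 of 12 lower, 1 higher, and 0.0167% to 0.00673% without Col1a1). Erythroid markers went from 0.589% to 0.223%, with 4 of 10 lower, or 0 of 10 after the adjustment. Adipocyte markers went from 0.0657% to 0.183%, with 2 of 9 lower and 3 higher (1 and 4 after the adjustment). Lpl, lipoprotein lipase, held most of the adipocyte sum, with 16993 and 50613 hip counts. Osteoclast markers held 0.00670% and 0.00557%, with 1 lower and 1 higher of the 7 with enough counts (2 and 1 after the adjustment). The part of these markers in the hip collagen ratios was not tested.

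The pattern of Col2a1 over the 4 libraries, high in the knee and lower in the knee TMX library, was compared with that of 13839 genes by the distance between log2 CPM values centred on each gene's mean. The 5 nearest genes outside the 7 were Prg2, at a distance of 0.449, Ighg2b (1.09), Prss34 (1.20), Ear1 (1.20) and Camp (1.23). Ear1 had 0 counts in both hip libraries. Prg2 went from 96 to 33 counts in the hip pair and from 25118 to 9040 in the knee pair. Of the 7 collagens, Col9a3 ranked nearest at 15 and Col9a2 next at 22, followed by Col11a1 at 71, Col11a2 at 131, Col9a1 at 306 and Col27a1 at 557. On the centred scale Col2a1 stood at -3.52 and -3.97 in the hip and at 4.52 and 2.97 in the knee. The gap between the joints was thus the largest part of its pattern. By largest difference, 3 of the 5 nearest genes remained, joined by Epx and Cnmd. With 4 libraries from 2 joints, this order is a description only.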

How the data were processed

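Per the labels, 4 poly-A libraries, 1 per group, came from articular cartilage of the hip or knee. The notes of the submitters name FastQC 0.11.3, STAR 2.0 and mm10, while the methods of the study name another build and STAR release, so coordinates are from GENCODE (GRCm39), matched by Ensembl identifier (91.8% of hip and 92.6% of knee identifiers). The values deposited by the authors are whole-number counts per gene, not normalized. Closing summary lines (25.8% and 24.6% of hip reads) were left out. The knee tables have none. Counting program and strand setting are not given in the sources used here.

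TMM factors were computed within each pair (edgeR 4.0.16, R 4.3.3), and size factors of DESeq2 1.42.0 served as an alternative. For ratios, 0.5 was added to each count, and 95% intervals are Clopper-Pearson, or log-normal for knee quotients to Col2a1. The trend alternative subtracts medians over 20 bins of transcript length and of GC content, 2 times. Scripts ran in Python 3.11.15 (scipy 1.17.1). The ratio, interval and trend steps were tested on simulated data. Named genes include the 7 collagens, Cbfb and the 5 nearest to Col2a1, with at least 100 counts in some library. Others were drawn per list from the 3 of highest mean CPM and the lowest and highest ratio per pair with at least 50 counts. Per marker list they were drawn from the 2 of highest mean CPM. Only some of the list genes that this rule gives are printed. Acan, Hapln1, Cnmd, Epyc, Epx, Matn1, Mmp14, Mmp1a, Itga1, Colgalt2, Sec23a and Tcfl5 were named after their values were seen. The genes, lists and alternatives were chosen with earlier results of these data known.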

Additional observations from a re-analysis of the deposited data

Results flagged for a closer look

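For 2 of the 7 collagens, by the main TMM scaling, the hip and knee pairs lay on opposite sides of 0, each beyond its counting interval. How many of all genes did so was not counted, so 2 of 7 has no background share beside it. Col9a3 had a log2 ratio of 1.60 in the hip and -2.77 in the knee. Col27a1 had a log2 ratio of 1.38 in the hip and -1.005 in the knee. With the length and GC trend removed, Col9a2 joined them, at 1.002 in the hip and -3.09 in the knee. With 1 library per group the difference between the joints was not tested. Joint, age, Cre line, control type, tissue taken and the set of gene identifiers counted cannot be told apart.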

How the results depend on the processing

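In the hip, the median of the 7 ratios turned from -0.44 to 0.17 with the length and GC trend removed. Hip collagens called lower went from 1 to 2 with library size scaling, DESeq2 size factors, the trend removed or marker genes of other tissues left out of the library size, to 3 at 1.5-fold and to 0 at a log2 ratio of 2, where 0 were higher. With the trend removed 3 were higher in the hip, against 2. The knee median was -1.73 by library size (all-gene median 0.20), -1.79 without the marker genes (all-gene median 0.14) and -2.19 with the trend removed. Knee collagens called lower were 5 by library size, 5 without the marker genes, 6 by DESeq2 size factors and 3 at a log2 ratio of 2. Of 42 alternative values of single collagens in each joint, 41 in the hip and 42 in the knee kept their direction. Most of these could hardly turn, because other scalings shift all genes of a pair alike and the added count alters these ratios little. The value that turned was that of Col2a1 in the hip, at 0.17 with the trend removed. Genes called in all changed with the minimum count: with at least 10 in each library, 1435 were lower in the hip (3234 otherwise) and 811 in the knee (1440). With the trend removed 2598 were higher in the hip (4018 otherwise). At a log2 ratio of 2, the hip had 1691 lower and 1455 higher, and the knee 564 and 596, while at 1.5-fold the knee had 2891 and 3458. Of the 5 genes nearest Col2a1, 3 remained by largest difference. The hip libraries were about as deep as the knee ones, but 22 to 978 reads fell on each collagen in the hip control, which limits the precision of the hip ratios. No paired analysis was possible because each group has 1 library.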
